A study of Mus musculus with 4 samples.

Results

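The genes described here encode the enzymes that lengthen fatty acids beyond the chains made by fatty acid synthase. They are the elongases Elovl1, Elovl5, Elovl6 and Elovl7, the reductase gene Hsd17b12, the dehydratase genes Hacd2 and Hacd3, and the reductase gene Tecr. They were taken by symbol, and all 8 were found among the 32285 genes of the files. The study profiled single thymic iNKT cells, T cells with a semi-invariant receptor for lipid antigens shown by CD1d, from mice 6 to 8 weeks old. Cells were enriched magnetically and sorted for CD3 and for binding of a CD1d tetramer, and 3′ ends of transcripts were counted with unique molecular identifiers (UMIs). There were 2 libraries labelled ACC1 KO and 2 WT libraries, numbered 1 and 2 in each genotype. Acaca encodes ACC1, the carboxylase that turns acetyl-CoA into malonyl-CoA, and the labels give neither the deleted part of the gene nor the cells in which it is deleted.

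Elongation takes place on the endoplasmic reticulum in a cycle of steps that adds a unit from malonyl-CoA to an acyl-CoA in each round. An elongase of the ELOVL family carries out the first, condensing step and sets which chains are lengthened, while the later steps are shared. The product is reduced by the ketoreductase HSD17B12, dehydrated by a HACD enzyme and reduced again by TECR. Malonyl-CoA is thus a substrate of both fatty acid synthase and the elongases, and very long chains go mainly into sphingolipids and phospholipids.

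After filtering, 5608 and 7794 iNKT cells remained in ACC1 KO 1 and 2, and 4615 and 9019 in WT 1 and 2, with 23.57 to 65.1 M UMIs per library. All 8 iNKT identity markers were detected, including the receptor segments Trav11 and Traj18. In CPM, a gene's UMIs scaled to a common library total, they summed to 3436 and 3265 in ACC1 KO 1 and 2 and to 3836 and 3669 CPM in WT 1 and 2, with 2 of 8 below both WT libraries in both ACC1 KO libraries. The markers of B cells summed to 84.0 to 102.7 CPM, and those of double-positive (DP) thymocytes to 39.1 to 71.4 CPM, with the genotypes overlapping. The 5 markers of gamma delta T cells summed to 101.2 and 82.1 CPM in ACC1 KO 1 and 2, against 194.7 and 157.4 CPM in WT 1 and 2. Their part in the results was not tested. Ddx3y, which is Y-linked, reached 77.3 CPM in ACC1 KO 1 and 82.7 CPM in WT 1, and Xist 653 CPM in ACC1 KO 2 and 587 CPM in WT 2, the deeper pair. Because of this split, pooled fold changes are followed by those of either number where they matter. Any 2 libraries shared 10 to 27 cell barcodes. Separate animals are not stated for the libraries, and p-values of genotype comparisons within a set of cells refer to the spread among the 4 of them. Those of fits across classes refer to the spread of class and library sums that is left after a term for the library. With 2 libraries against 2, 0.3333 is the smallest p that an exact two-sided permutation test of 1 value can reach.

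The promoter windows of 5 genes are shown because the 3 elongases among them stood higher in both ACC1 KO libraries, and because those 3 and the 2 genes of shared steps varied in opposite ways between iNKT classes. Each window runs from 250 bases before to 50 bases after the gene's start, 5′ to 3′ on the gene's strand, from RefSeq on build GRCm38.p6. They lie at chr9:77917115-77917414 on the plus strand for Elovl5, chr3:129532136-129532435 (plus) for Elovl6, chr13:108214154-108214453 (plus) for Elovl7, chr2:94157860-94158159 (minus) for Hsd17b12 and chr16:35022171-35022470 (plus) for Hacd2. Capitals mark matches to the NF-Y motif CCAAT or the Sp1 motif GGGCGG on either strand.
Elovl5: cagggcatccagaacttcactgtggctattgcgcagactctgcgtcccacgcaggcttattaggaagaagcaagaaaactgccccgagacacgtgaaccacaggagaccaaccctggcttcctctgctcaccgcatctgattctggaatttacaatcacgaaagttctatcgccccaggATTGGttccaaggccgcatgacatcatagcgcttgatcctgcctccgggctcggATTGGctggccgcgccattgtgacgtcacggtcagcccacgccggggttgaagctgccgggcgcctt
Elovl6: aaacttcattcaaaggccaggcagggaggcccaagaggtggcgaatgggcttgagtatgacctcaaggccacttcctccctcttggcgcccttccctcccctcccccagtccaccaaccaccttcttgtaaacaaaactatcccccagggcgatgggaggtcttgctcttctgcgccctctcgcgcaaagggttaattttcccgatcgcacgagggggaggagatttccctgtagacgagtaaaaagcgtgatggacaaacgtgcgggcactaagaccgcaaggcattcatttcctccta
Elovl7: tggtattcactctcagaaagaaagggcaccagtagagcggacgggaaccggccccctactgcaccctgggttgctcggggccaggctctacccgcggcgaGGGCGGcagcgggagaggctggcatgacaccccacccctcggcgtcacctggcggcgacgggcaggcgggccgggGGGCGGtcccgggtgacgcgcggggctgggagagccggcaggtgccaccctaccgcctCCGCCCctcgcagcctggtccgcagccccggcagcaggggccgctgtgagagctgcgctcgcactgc
Hsd17b12: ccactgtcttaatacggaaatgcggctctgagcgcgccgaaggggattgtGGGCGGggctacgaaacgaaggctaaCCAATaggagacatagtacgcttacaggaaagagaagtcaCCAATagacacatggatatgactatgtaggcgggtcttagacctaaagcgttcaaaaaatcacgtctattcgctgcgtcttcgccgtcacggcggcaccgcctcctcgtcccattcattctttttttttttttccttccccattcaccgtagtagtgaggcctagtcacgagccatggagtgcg
Hacd2: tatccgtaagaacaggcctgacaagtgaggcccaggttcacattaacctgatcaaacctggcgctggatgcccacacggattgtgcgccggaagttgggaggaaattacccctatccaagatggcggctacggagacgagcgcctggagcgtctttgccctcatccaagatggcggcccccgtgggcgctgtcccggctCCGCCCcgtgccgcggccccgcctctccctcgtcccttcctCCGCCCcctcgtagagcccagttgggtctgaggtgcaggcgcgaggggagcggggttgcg

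Elovl5 and Hsd17b12 had 2 NF-Y matches each, Elovl7 had 3 Sp1 matches, Hacd2 had 2 and Hsd17b12 had 1, and the window of Elovl6 held neither motif. All 8 genes had at least 1 window in the RefSeq table, 9 in all, since Elovl1 had 2. NF-Y letters stood in 5 of the 9 windows, against 37.4% of the 32851 promoter windows of the table, and Sp1 letters in 7 of 9, against 35.7%. The core of the sterol regulatory element, TCACNCCAC, was in none of the 9 windows, against 1.24% of all windows. The E-box CANNTG, which can be read on both strands at once, was in 8 of 9 windows, against 72.3%. These are matches of letters only.

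The first comparison set ACC1 KO against WT libraries over all iNKT cells. No elongation gene passed adjustment over all genes, in edgeR's quasi-likelihood test, where 1 of 14693 genes passed (0.00681%) and 712 (4.85%) had an unadjusted p under 0.05, nor in DESeq2, which called 0.712% of genes. The elongases Elovl5 and Elovl7 had the 2 largest fold changes of the 8, while Elovl1, Elovl6 and the genes of the shared steps lay closer to equality. For 4 of the 8 genes, Elovl5, Elovl6, Elovl7 and Hsd17b12, the ACC1 KO pair exceeded the WT pair without overlap, against 11.3% of all genes tested. For none did it lie wholly lower, against 19.3% of all genes. The median log2 fold change over the 8 genes was 0.17, beside -0.0072 over all genes.

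Elovl5 (ENSMUSG00000032349, chromosome 9, 77917364 to 77984519, plus strand, mm10) lengthens polyunsaturated fatty acids. It had 122 and 147 CPM in ACC1 KO 1 and 2, from 3463 and 9577 UMIs, against 85.3 and 87.3 CPM in WT 1 and 2, from 2011 and 5461 UMIs. Both ACC1 KO libraries stood clear of the WT pair, which lay close together. On the log2 scale ACC1 KO exceeded WT by 0.69 ± 0.15 (SE), by 0.62 within number 1 and by 0.75 within number 2. The adjusted p was 0.587 in edgeR and 0.0657 in DESeq2. Without a filter on low counts Elovl5 and Elovl7 passed in edgeR (adjusted p = 0.0173 and 0.0019). That fit called 366 of at most 32285 genes, in place of 1.

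Elovl7 (ENSMUSG00000021696, chromosome 13, 108214404 to 108285683, plus strand) acts on long saturated and monounsaturated chains. It had 11.1 and 14.7 CPM in ACC1 KO 1 and 2, from 316 and 957 UMIs, against 5.39 and 8.49 CPM in WT 1 and 2, from 127 and 531 UMIs. Within each genotype the library numbered 2 was the higher, and the genotypes did not overlap. Its log2 fold change came to 0.92 ± 0.30 (SE), and to 1.14 within number 1 and 0.79 within number 2 (edgeR adjusted p = 0.887, DESeq2 adjusted p = 0.327).

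Elovl6 (ENSMUSG00000041220, chromosome 3, 129532355 to 129638495, plus strand), which lengthens palmitate to stearate, had 34.4 and 34.9 CPM in ACC1 KO 1 and 2, against 32.6 and 28.5 CPM in WT 1 and 2. The ACC1 KO libraries lay just above WT 1, and WT 2 was the lowest. The log2 difference of 0.23 ± 0.13 (SE) split into 0.18 within number 1 and 0.29 within number 2 (edgeR adjusted p = 0.9999). Elovl1 (ENSMUSG00000006390, chromosome 4, 118428093 to 118432953, plus strand) makes very long saturated chains. It had 17.99 and 24.5 CPM in ACC1 KO 1 and 2, against 20.2 and 25.4 CPM in WT 1 and 2. Here the libraries numbered 2 were higher than those numbered 1 in both genotypes, and the log2 fold change was -0.06 ± 0.23 (SE). Number, depth and the Ddx3y or Xist pattern cannot be told apart. Elovl1 overlaps Cdc20, a mitotic gene on the opposite strand, and the sources used here do not state that counting used strand. Cdc20 had 8.29 and 14.2 CPM in ACC1 KO 1 and 2, against 4.88 and 8.93 CPM in WT 1 and 2, and its part in the counts of Elovl1 was not tested.

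**Figure D1:**
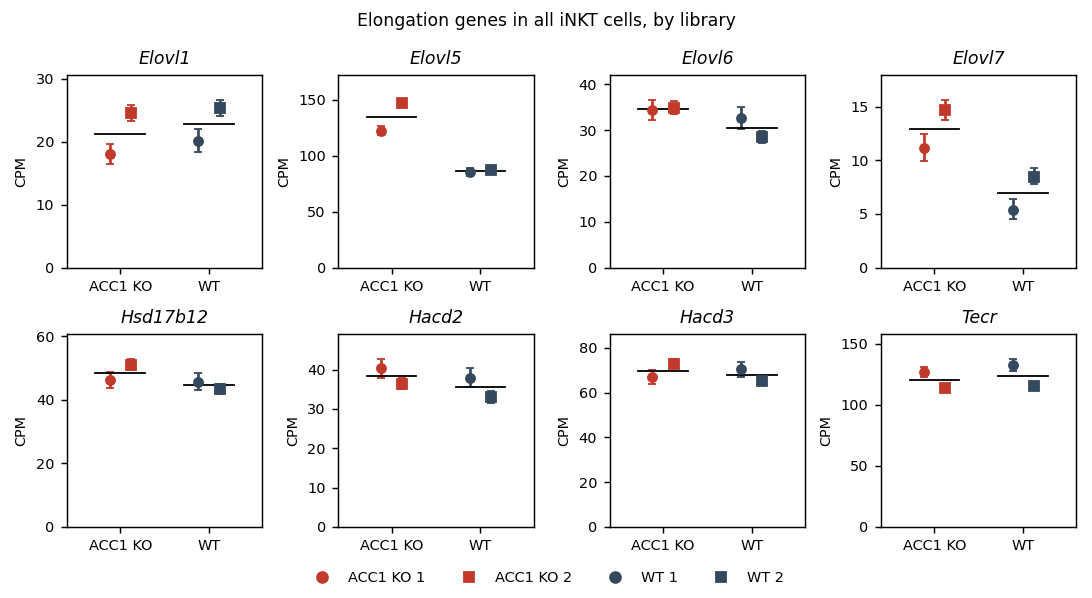
CPM of each elongation gene over all iNKT cells, with ACC1 KO libraries on the left and WT libraries on the right of each panel. Points are libraries, circles numbered 1 and squares numbered 2, bars are 95% Poisson intervals that cover counting error only, and black lines are genotype means. For Elovl5 and Elovl7 both ACC1 KO points and their intervals lie above both WT points.

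The genes of the shared steps differed less than Elovl5 and Elovl7, as did Elovl1 and Elovl6. Hsd17b12 (ENSMUSG00000027195, chromosome 2, 94032689 to 94157964, minus strand) encodes the ketoreductase and had 46.1 and 51.1 CPM in ACC1 KO 1 and 2, against 45.7 and 43.5 CPM in WT 1 and 2. ACC1 KO 1 stood above WT 1 by less than 1 CPM, and the log2 fold change was 0.17 ± 0.13 (SE). Weighting the classes alike in all libraries gave 0.08. The dehydratase gene Hacd2 (ENSMUSG00000035376, chromosome 16, 35022428 to 35109177, plus strand) had 40.3 and 36.4 CPM in ACC1 KO 1 and 2, against 37.9 and 33.0 CPM in WT 1 and 2, with overlapping genotypes. Its log2 fold change was 0.16 ± 0.13 (SE), or 0.08 after the same weighting. The other dehydratase gene, Hacd3 (ENSMUSG00000033629, chromosome 9, 64986983 to 65021693, minus strand), had 66.8 and 72.9 CPM in ACC1 KO 1 and 2, against 70.4 and 65.2 CPM in WT 1 and 2, which gave 0.09 ± 0.13 (SE) on the log2 scale. Tecr (ENSMUSG00000031708, chromosome 8, 83571698 to 83607971, minus strand), the enoyl reductase gene, had 126.6 and 113.6 CPM in ACC1 KO 1 and 2, against 132.5 and 114.9 CPM in WT 1 and 2. The genotypes overlapped for Hacd3 and Tecr, and the log2 fold change of Tecr stood at 0.0070 ± 0.13 (SE). The edgeR adjusted p of all 4 genes was 0.9999.

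The comparison was repeated within 4 classes of iNKT cells, found by clustering without the elongation genes and without the lipid genes listed below. They were iNKT1-like cells (21594), named from markers such as Tbx21 and Il2rb, cycling cells (1319), interferon-responding cells (2233) and a Plac8/Zbtb16-led cluster (1140). The last had the highest score for iNKT2 markers (2.816) and 12 of 12 of them above 5 CPM. It also scored 1.718 for iNKT0 and 1.189 for cycling markers. It was left without the iNKT2 name because its top 10 genes held 2 iNKT0 markers, Ccr9 and Id3, and 1 iNKT2 marker, Plac8. It is called here after Plac8 and Zbtb16, which were among its top 10 genes, but its 2 leading genes were 2600014E21Rik and Nrgn. Among iNKT1-like clusters, those led by Fgf13 and by Gramd3 and both led by Atp8a2 had 0 iNKT1 markers in their top 10 genes. No other marker list had any there, and each had at least 13 of 14 iNKT1 markers above 5 CPM. Both led by Atp8a2 scored lower for iNKT1 markers (0.394 and -0.06) than for iNKT2 markers (0.487 and 0.836). No elongation gene passed in any class in edgeR, in the fit with genotype alone. The share of all genes that passed was 0.00733% in iNKT1-like, 0.0% in Plac8/Zbtb16-led, 0.0367% in cycling and 0.0397% in interferon-responding cells, with unadjusted p under 0.05 in 3.63, 2.42, 2.46 and 3.56%. Elovl5 passed in DESeq2 in iNKT1-like cells (adjusted p = 0.0188), where that tool called 0.519% of genes. It called 0.0167% in Plac8/Zbtb16-led, 0.038% in cycling and 0.0851% in interferon-responding cells, and none of the 8 there.

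Elovl5 was above both WT libraries in both ACC1 KO libraries in each of the 4 classes. In iNKT1-like cells it had 134.8 and 161.7 CPM in ACC1 KO 1 and 2, against 90.9 and 92.2 CPM in WT 1 and 2. The log2 fold change was 0.79 ± 0.16 (SE, 0.68 in number 1 and 0.87 in number 2, edgeR adjusted p = 0.522). In the Plac8/Zbtb16-led cluster the level was lower in every library, at 45.4 and 63.0 CPM in ACC1 KO 1 and 2, against 24.6 and 33.5 CPM in WT 1 and 2, while the log2 fold change was 0.89 ± 0.26 (SE). In cycling cells Elovl5 had 101.1 and 133.2 CPM in ACC1 KO 1 and 2, against 75.7 and 72.8 CPM in WT 1 and 2 (0.69 ± 0.19). In interferon-responding cells it had 142.4 and 164.2 CPM in ACC1 KO 1 and 2, against 105.4 and 88.8 CPM in WT 1 and 2 (0.74 ± 0.18). The genotypes stayed apart in each class, and ACC1 KO 2 was the highest library in all 4. Without ACC1 KO 1, Elovl5 passed in the Plac8/Zbtb16-led cluster (log2 fold change 1.10, edgeR adjusted p = 0.0157) and in cycling cells (0.88, edgeR adjusted p = 0.0354). In those fits 68 genes were called in the Plac8/Zbtb16-led cluster in place of 0, and 80 in cycling cells in place of 4, and the 1 remaining ACC1 KO library is assumed to vary as the WT libraries do.

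Elovl6 also lay higher in both ACC1 KO libraries in the 4 classes. Its log2 fold change was 0.28 ± 0.13 (SE) in iNKT1-like, 0.36 ± 0.28 in Plac8/Zbtb16-led, 0.63 ± 0.23 in cycling and 0.53 ± 0.22 in interferon-responding cells. In cycling cells it had 29.7 and 38.2 CPM in ACC1 KO 1 and 2, against 22.5 and 22.3 CPM in WT 1 and 2, with the WT pair nearly equal. In iNKT1-like cells the gap was narrow, with 38.4 and 37.0 CPM in ACC1 KO 1 and 2, against 36.0 and 30.3 CPM in WT 1 and 2. Elovl7 lay higher without overlap in 3 classes. It had 11.98 and 16.9 CPM in ACC1 KO 1 and 2, against 5.59 and 9.13 CPM in WT 1 and 2, in iNKT1-like cells (log2 fold change 1.04 ± 0.33). In interferon-responding cells it had 11.7 and 15.5 CPM in ACC1 KO 1 and 2, against 4.85 and 6.65 CPM in WT 1 and 2 (1.26 ± 0.35, edgeR adjusted p = 0.758), and in cycling cells the log2 fold change was 0.78 ± 0.31. In the Plac8/Zbtb16-led cluster Elovl7 had 7 and 35 UMIs in ACC1 KO 1 and 2, against 5 and 10 UMIs in WT 1 and 2, which was too few for the filter, and the genotypes overlapped.

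Of the shared steps, Hacd2 and Hacd3 lay apart by genotype in the Plac8/Zbtb16-led cluster. Hacd2 had 65.9 and 80.4 CPM in ACC1 KO 1 and 2, against 47.3 and 57.9 CPM in WT 1 and 2. The difference of 0.47 ± 0.23 (SE) on the log2 scale held within number 1 (0.50) and within number 2 (0.48, edgeR adjusted p = 0.9999). Hacd3 had 96.6 and 115.2 CPM in ACC1 KO 1 and 2, against 87.7 and 96.3 CPM in WT 1 and 2 (0.20 ± 0.21), so that ACC1 KO 1 barely cleared WT 2. In iNKT1-like, cycling and interferon-responding cells the genotypes overlapped for Hsd17b12, Hacd2, Hacd3 and Tecr. Genes without overlap and higher in ACC1 KO numbered 3 of 8 in iNKT1-like (7.36% of all genes), 4 of 8 in Plac8/Zbtb16-led (12.2%, with Elovl7 short of the filter), 3 of 8 in cycling (12.7%) and 3 of 8 in interferon-responding cells (9.73%). None lay lower without overlap in any of the 4, against 23.4, 12.2, 15.2 and 19.6% of all genes.

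Whether the genotype difference itself varied between classes was tested in 1 fit of both classes. Set against iNKT1-like cells, 0 of 8 elongation genes passed for the Plac8/Zbtb16-led cluster (0.114% of all genes passed), 0 for cycling cells (0.135%) and 0 for interferon-responding cells (0.0724%). The lowest unadjusted p of the 8 genes for the Plac8/Zbtb16-led cluster was that of Hacd2, at 0.0376, where the log2 fold change exceeded that of iNKT1-like cells by 0.42 ± 0.19 (SE, edgeR adjusted p = 0.815). For Elovl5 the same difference was 0.08 ± 0.19, and for cycling and interferon-responding cells it was -0.08 ± 0.11 and -0.0088 ± 0.09.

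**Figure D2:**
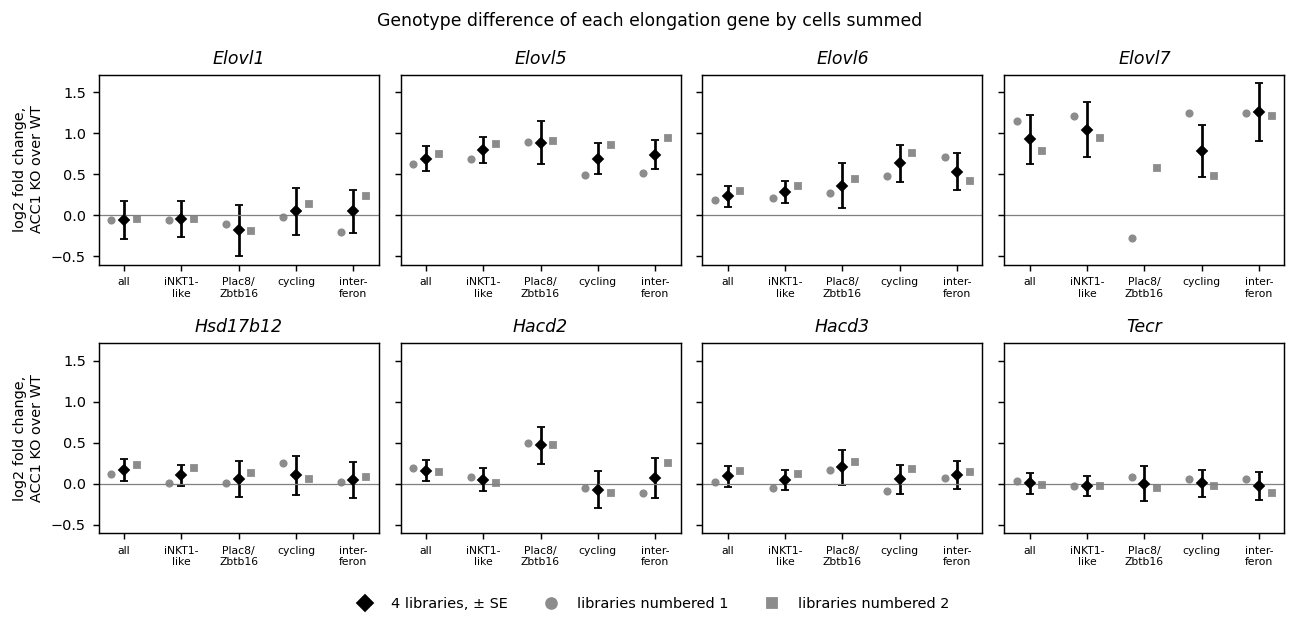
Log2 fold change of ACC1 KO over WT for each elongation gene (vertical axis) in all iNKT cells and in 4 classes (horizontal axis). Black diamonds with bars are edgeR values ± SE over 4 libraries, and grey circles and squares are the values within libraries numbered 1 and 2. Elovl5 and Elovl6 lie above 0 in every set of cells, Tecr lies near 0 throughout, and Elovl7 has no fitted value in the Plac8/Zbtb16-led cluster.

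The iNKT1-like class was made of 8 clusters, and some of them differed in cell number between the genotypes, which was not tested. The cluster led by Gm4208 and Gzma held 1486 and 1310 cells in ACC1 KO 1 and 2, against 236 and 716 cells in WT 1 and 2. The cluster led by Klra4 and Klra7 held 237 and 371 cells in ACC1 KO 1 and 2, against 1071 and 1863 cells in WT 1 and 2. Cell numbers of the cluster led by Ccl5 and Cd7 followed the library number instead, with 121 and 857 cells in ACC1 KO 1 and 2, against 25 and 1435 cells in WT 1 and 2. Elovl5 was higher in both ACC1 KO libraries in 8 of 8 clusters, including these, and Elovl6 and Elovl7 were in 5 of 8 each, with the others overlapping. The 5 of Elovl7 include the cluster led by Atp8a2 and St6galnac3, with 2 and 5 UMIs in ACC1 KO 1 and 2, against 3 and 3 in WT 1 and 2. In the Klra4-led cluster Elovl7 had 15.5 CPM in ACC1 KO 2, against 14.7 CPM in WT 2. The 8 clusters come from the same 4 libraries and are not replicates of each other. Of the 13649 genes tested in iNKT1-like cells, 0.344% lay higher without overlap in 8 of 8 clusters and 2.40% in at least 5, and the share in a single cluster was 10.3 to 15.2%. Hacd2 and Hacd3 were higher without overlap in 2 of 8 clusters each, Hsd17b12 in 1, and Elovl1 and Tecr in none, against 25.6% of genes in at least 2 clusters and 53.1% in at least 1. Elovl1, Hsd17b12 and Hacd2 were lower without overlap in 1 cluster each, against 64.4% of genes in at least 1.

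Levels also varied between the clusters. Elovl5 was highest in the cluster led by Fgf13 and Dgkh, at 171.2 and 199.4 CPM in ACC1 KO 1 and 2, against 145.1 and 140.1 CPM in WT 1 and 2. It was lowest in the cluster led by Ccl5 and Cd7, at 105.8 and 114.2 CPM in ACC1 KO 1 and 2, against 47.1 and 58.5 CPM in WT 1 and 2, where WT 1 had 25 cells. For both clusters the ACC1 KO libraries stood above the WT libraries. Elovl7 stayed below 2 CPM in each library of both clusters led by Atp8a2. Its values there were 0.844 and 1.56 CPM in ACC1 KO 1 and 2, against 0.464 and 1.06 CPM in WT 1 and 2, in the first, and 1.84 and 1.86 CPM in ACC1 KO 1 and 2, against 0.780 and 0.437 CPM in WT 1 and 2, in the second. Elovl5 had at least 73.9 CPM in each library of the same 2 clusters. In the cluster led by Fgf13 and Dgkh, Elovl7 had 22.3 and 24.8 CPM in ACC1 KO 1 and 2, against 10.8 and 14.5 CPM in WT 1 and 2.

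**Figure D3:**
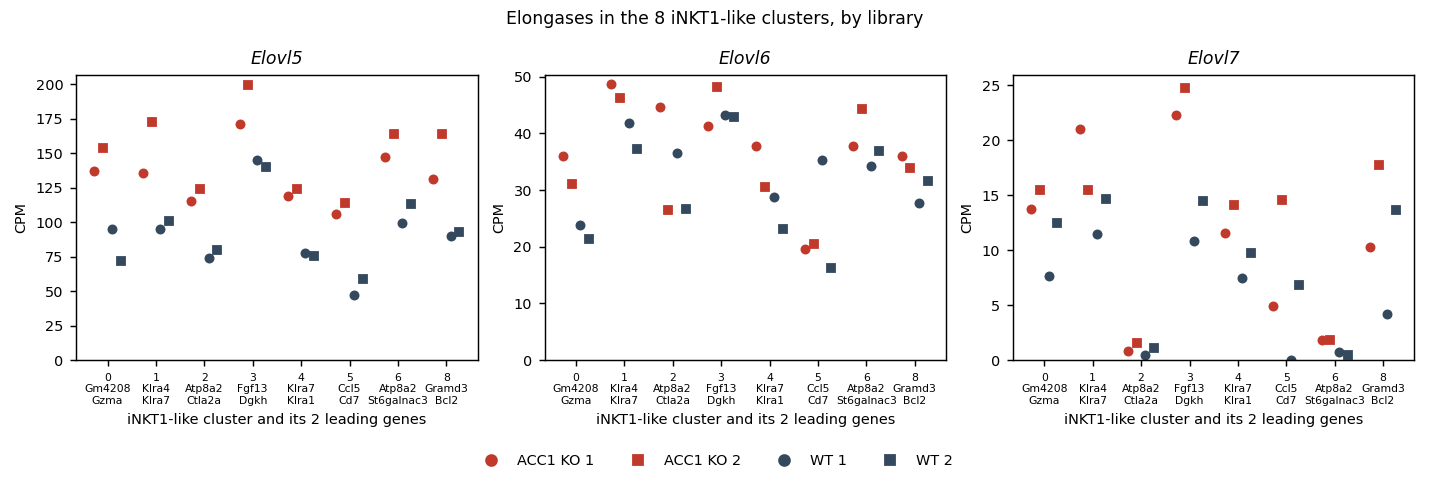
CPM of 3 elongases (vertical axis) in the 8 iNKT1-like clusters (horizontal axis, cluster number and 2 leading genes), with ACC1 KO libraries in red on the left and WT libraries in dark blue on the right of each cluster. Elovl5 is higher in both ACC1 KO libraries in all 8 clusters, and Elovl7 stays under 2 CPM in both clusters led by Atp8a2.

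The elongases and the shared steps were next compared between classes, in a model over 4 libraries that held a library term. The Plac8/Zbtb16-led cluster had less Elovl5, Elovl6 and Elovl7 than iNKT1-like cells and more Hsd17b12, Hacd2, Hacd3 and Tecr. These 7 of 8 genes passed in edgeR, 4 higher and 3 lower, in a contrast where 61.7% of 11590 genes passed, 3473 of them higher and 3675 (31.7%) lower. The call of Elovl7, among the 3 lower, is set apart from the others. Elovl7 missed the count filter within the Plac8/Zbtb16-led cluster and entered by a filter over all 16 sums. Elovl1 had 0.10 ± 0.10 (SE, edgeR adjusted p = 0.379). Each of the 7 went the same way in 4 of 4 libraries. The median UMI count per cell of the Plac8/Zbtb16-led cluster was 8145 to 15097, against 4354 to 7061 in iNKT1-like cells, and its part in the contrast was not tested. The groups share libraries and not cells, and clusters rest on genes that vary together, so that a gene left out of the clustering can still follow it.

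Elovl5 fell by 1.57 ± 0.07 on the log2 scale in the Plac8/Zbtb16-led cluster (edgeR adjusted p = 6.9e-18), with a mean of 41.6 ± 16.6 CPM there and 119.9 ± 34.5 CPM in iNKT1-like cells (SD, n = 4 libraries). The highest library of the Plac8/Zbtb16-led cluster, at 63.0 CPM, was below the lowest of iNKT1-like cells, at 90.9 CPM. Elovl7 fell by 1.75 ± 0.21, from 7 and 35 UMIs in ACC1 KO 1 and 2, and 5 and 10 UMIs in WT 1 and 2, in the Plac8/Zbtb16-led cluster. It missed the filter on counts within that cluster and entered this fit by a filter over all 16 sums. Elovl6 fell by 1.02 ± 0.10, with 15.8 to 21.9 CPM in the Plac8/Zbtb16-led cluster and 30.3 to 38.4 CPM in iNKT1-like cells. For Elovl6 too the classes did not overlap.

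The genes of the shared steps went the other way. Hacd2 rose by 0.94 ± 0.11 on the log2 scale, with 62.9 ± 14.0 CPM in the Plac8/Zbtb16-led cluster and 33.1 ± 3.07 CPM in iNKT1-like cells (SD, n = 4 libraries). Hsd17b12 rose by 0.79 ± 0.08, with 73.2 ± 6.97 CPM in the Plac8/Zbtb16-led cluster and 41.1 ± 2.31 CPM in iNKT1-like cells. Hacd3 rose by 0.56 ± 0.06 and Tecr by 0.55 ± 0.05. Of these 4 genes, the lowest library of the Plac8/Zbtb16-led cluster stood above the highest of iNKT1-like cells each time, as for Tecr with 163.7 CPM over 127.7 CPM. The 72 values of these 8 genes under other tests and scalings, in 1 other clustering or without single libraries kept their direction and side of the threshold. They do not cover coarser or finer clusters. Coarser clusters held no such class, and finer ones left it 434 cells in place of 1140, so that the contrast could not be run in either.

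**Figure D4:**
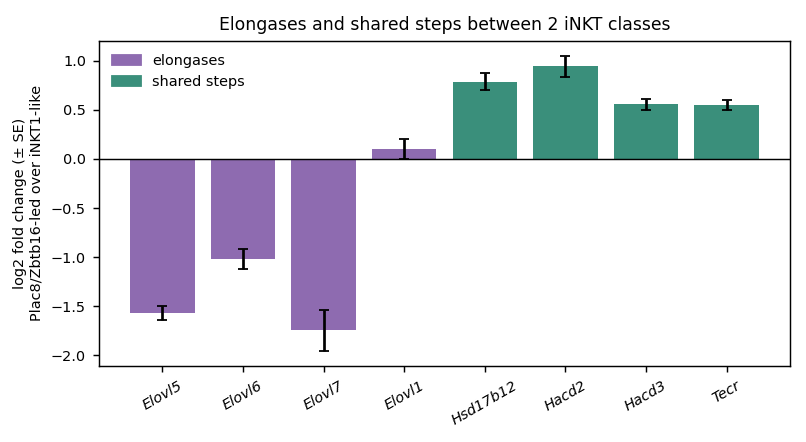
Log2 fold change of the Plac8/Zbtb16-led cluster over iNKT1-like cells for each elongation gene, as edgeR values with bars of ± SE over 4 libraries. Elongases are purple and shared steps green. Elovl5, Elovl6 and Elovl7 lie between -1.75 and -1.02, Elovl1 at 0.10, and the shared steps between 0.55 and 0.94. The bar of Elovl7 rests on few UMIs in the Plac8/Zbtb16-led cluster.

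The cycling class had members of both groups of genes called against iNKT1-like cells, and its 3 clusters were unlike each other. Set against iNKT1-like cells (62.1% of genes passed, 28.2% higher and 33.9% lower), Hsd17b12 rose by 0.69 ± 0.08 (SE), Hacd2 by 0.40 ± 0.11 and Tecr by 0.15 ± 0.05, and Elovl5 fell by 0.44 ± 0.06 and Elovl6 by 0.38 ± 0.09, all in edgeR. The cluster led by Top2a and Hist1h2ap, 307 of the 1319 cells, had 14.4 and 16.0 CPM of Elovl6 in ACC1 KO 1 and 2, against 8.91 and 6.42 CPM in WT 1 and 2. The cluster led by Rad51b and Hells, 723 cells, had 38.9 and 55.2 CPM of Elovl6 in ACC1 KO 1 and 2, against 32.4 and 34.3 CPM in WT 1 and 2. The third, led by Mki67 and Hist1h2ap, 289 cells, had 27.7 and 44.96 CPM in ACC1 KO 1 and 2, against 23.97 and 31.0 CPM in WT 1 and 2. Elovl6 was thus low in 1 of the 3 clusters in all libraries. Hacd2 ran the other way in the same pair of clusters, with 100.6 and 58.5 CPM in ACC1 KO 1 and 2, against 77.96 and 56.4 CPM in WT 1 and 2, in the Top2a-led cluster, and 36.7 and 33.4 CPM in ACC1 KO 1 and 2, against 40.96 and 31.2 CPM in WT 1 and 2, in the Rad51b-led one. The Top2a-led cluster scored -3.081 for iNKT1 markers and 2.45 for iNKT2 markers, while the other two scored 0.806 and 0.616 for iNKT1 markers. The part of this mix in the contrasts of cycling cells was not tested. Over the whole class, Elovl6 was lower in 3 of 4 libraries. The call of Tecr was lost without ACC1 KO 2 (edgeR adjusted p = 0.0569), without WT 2 (0.0878) and in WT libraries alone (0.0533). Hacd3 stood at -0.03 ± 0.06 after scaling, though its CPM was higher in 4 of 4 libraries, and was called higher with coarser or finer clusters, as given with the dependence on processing. Elovl1 had 19.4 to 31.8 CPM in cycling and 17.9 to 24.8 CPM in iNKT1-like cells, and was not called, while Cdc20, which overlaps it, averaged 76.3 CPM in cycling and 1.74 CPM in iNKT1-like cells.

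In interferon-responding cells 2 of 8 genes fell against iNKT1-like cells, Elovl6 by 0.40 ± 0.10 (SE, edgeR adjusted p = 0.0046) and Hsd17b12 by 0.39 ± 0.10 (edgeR adjusted p = 0.0098), where 10.2% of all genes passed, 4.63% lower and 5.6% higher. The call of Hsd17b12 was lost without ACC1 KO 2 (edgeR adjusted p = 0.157) and without WT 2 (0.0553), and that of Elovl6 without WT 1 (0.0546). WT libraries alone lost the calls of Hsd17b12 (edgeR adjusted p = 0.310) and Elovl6 (0.0649). That of Hsd17b12 was also lost with finer clusters (edgeR adjusted p = 0.0866) and in DESeq2 (adjusted p = 0.0531). Set against the Plac8/Zbtb16-led cluster, interferon-responding cells had 3 genes higher and 4 lower (59.3% of all genes passed, 29.9% higher and 29.3% lower), and cycling cells had 3 higher and 3 lower (43.7%, 22.8% higher and 20.9% lower). The higher genes were Elovl5, Elovl6 and Elovl7 in both. Hacd2, Hacd3 and Tecr were lower in both, and Hsd17b12 in interferon-responding cells. Both calls of Elovl7 carry the limit that it missed the count filter within the Plac8/Zbtb16-led cluster. In cycling cells the call of Hacd2 was lost without ACC1 KO 2 (edgeR adjusted p = 0.116), in WT libraries alone (0.424) and when list genes were kept for clustering (0.175), and that of Elovl6 in WT libraries alone (0.146) and with list genes kept (edgeR adjusted p = 0.311). In interferon-responding cells the WT libraries alone lost the calls of Elovl6 (edgeR adjusted p = 0.0697) and Elovl7 (0.104). Between interferon-responding and cycling cells, Elovl5 was higher and Elovl1, Hsd17b12 and Hacd2 were lower (59.4% of all genes passed, 30.7% higher and 28.7% lower), the call of Elovl1 being lost without ACC1 KO 2 (edgeR adjusted p = 0.127) and without WT 2 (0.120). That call was also lost in WT libraries alone (edgeR adjusted p = 0.130), with coarser (0.0926) or finer clusters (0.110) and with list genes kept (0.0932).

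**Figure D5:**
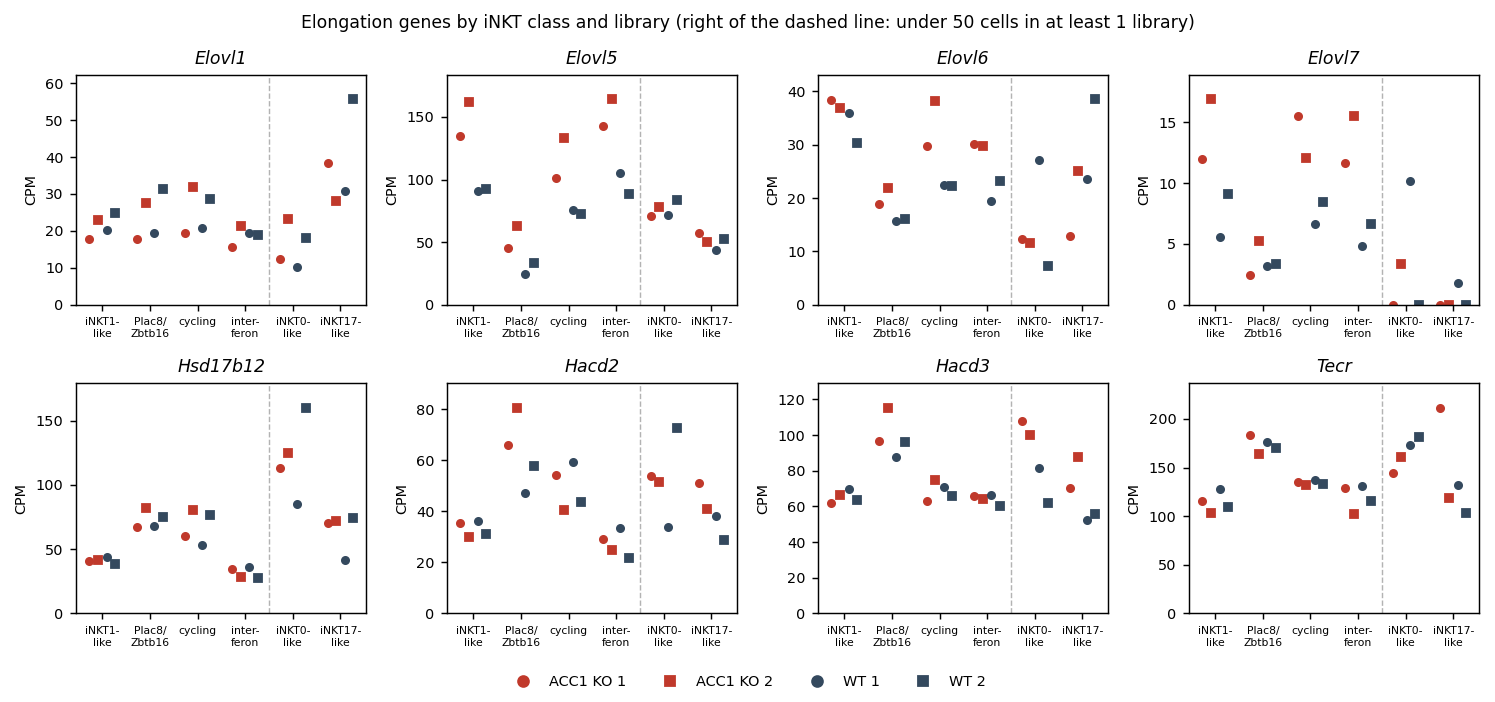
CPM of each elongation gene (vertical axis) by iNKT class (horizontal axis), with ACC1 KO libraries in red on the left and WT libraries in dark blue on the right of each class, circles numbered 1 and squares numbered 2. Elovl5, Elovl6 and Elovl7 are lower in the Plac8/Zbtb16-led cluster than in iNKT1-like cells, and Hsd17b12, Hacd2, Hacd3 and Tecr are higher there. The 2 classes right of the dashed line had under 50 cells in at least 1 library and were not tested.

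The order of the 4 classes by mean CPM was the same for Hsd17b12, Hacd2 and Hacd3, with the Plac8/Zbtb16-led cluster first, then cycling, iNKT1-like and interferon-responding cells. For Hsd17b12 no difference was called between the first 2 classes in edgeR, for Hacd2 none between the last 2, and for Hacd3 none among the last 3. Elovl6 and Elovl7 both ran from iNKT1-like to cycling, interferon-responding and Plac8/Zbtb16-led cells. For Elovl7 none was called in edgeR among the first 3, and for Elovl6 none between cycling and interferon-responding cells. Other clusterings did call Elovl7 lower in cycling than in iNKT1-like cells. Its log2 fold change was -0.77 with coarser clusters (edgeR adjusted p = 1.3e-05), -0.65 with finer clusters (4.9e-05) and -0.46 with list genes kept for clustering (0.0039). In interferon-responding over cycling cells it was called higher with coarser (0.44) and finer clusters (0.40). Elovl5 was highest in interferon-responding cells, which did not differ from iNKT1-like cells (0.09 ± 0.06, SE), and lowest in the Plac8/Zbtb16-led cluster.

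The 2 smallest classes gave few UMIs. In iNKT0-like cells, which carry the immature markers Lef1 and Itm2a, Hsd17b12 had 112.8 and 124.7 CPM in ACC1 KO 1 and 2, against 84.9 and 159.9 CPM in WT 1 and 2. These rest on 46 and 75 UMIs in ACC1 KO 1 and 2, and on 25 and 44 UMIs in WT 1 and 2. Each of these 4 values exceeded the highest of the 4 tested classes, at 82.2 CPM. Elovl5 did not separate by genotype there, with 71.1 and 78.2 CPM in ACC1 KO 1 and 2, against 71.3 and 83.6 CPM in WT 1 and 2. In iNKT17-like cells, which carry Il23r and Tmem176a, Elovl5 had 57.6 and 50.1 CPM in ACC1 KO 1 and 2, from 9 and 16 UMIs, against 43.5 and 52.8 CPM in WT 1 and 2, from 24 and 37 UMIs, and overlapped. Elovl7 had 0 UMIs in both ACC1 KO libraries, which at 3 counts allows up to 19.2 and 9.39 CPM, against 1 and 0 UMIs in WT 1 and 2. These limits cover counting error only. No test was run in the 2 classes.

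How the genes varied together was described over the 16 sums of 4 classes in 4 libraries, which share libraries, depth and class. Pearson's r of log2(CPM + 1) was 0.86 for Elovl5 with Elovl7, 0.84 for Elovl5 with Elovl6 and 0.81 for Elovl6 with Elovl7. Among the shared steps it ran from 0.70 for Hsd17b12 with Hacd3 to 0.85 for Hsd17b12 with Hacd2. Between these 3 elongases and the shared steps it ran from -0.86 for Elovl5 with Tecr to -0.35 for Elovl6 with Hsd17b12. Among 6061 genes, those most like Elovl5 were Pim1 (0.97), Bhlhe40 (0.97) and Ifrd1 (0.96), and those most like Elovl6 were Ifrd1 (0.89), Rras2 (0.86) and Bbs9 (0.86). For Elovl1 they were Prpf38b (0.92), Hs2st1 (0.91) and Tgfb1 (0.90). Hsd17b12 was nearest to Eif2s3x, Slc29a1 and Adk (each 0.95), and Hacd2 to Atp2a2 (0.95), Wdr12 (0.93) and Ttc27 (0.93). Hacd3 was nearest to Msi2 (0.97), Nxpe3 (0.96) and Asap1 (0.95), and Tecr to Nsg2 (0.97), Camk4 (0.97) and Eci2 (0.96). Elovl7, at a mean of 8.70 CPM, was below the 20 CPM set for this search.

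The other genes of the pathway were taken from 7 lists. Of 5 further genes of the elongation cycle, 3 passed the filter on counts and none passed in edgeR, and Hacd1, Elovl4 and Hacd4 each stayed below 2 CPM in every library. Of 10 genes that supply or use malonyl-CoA, none passed in edgeR, and the median log2 fold change was 0.05. Without overlap, 5 lay higher and 4 lower, against 11.3 and 19.3% of all genes. Fasn, the fatty acid synthase, had 51.2 and 42.4 CPM in ACC1 KO 1 and 2, against 27.2 and 19.96 CPM in WT 1 and 2 (1.04 ± 0.18, SE). Mid1ip1, an activator of acetyl-CoA carboxylase, stood at 0.95 ± 0.15, Acaca itself at 0.74 ± 0.17 and the citrate carrier Slc25a1 at 0.36 ± 0.16. DESeq2 called Fasn (adjusted p = 0.000972) and Mid1ip1 (0.00375). Counts of Acaca do not check the genotype labels, since the deleted part is not given in the sources used here.

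Of 9 genes of desaturases, which introduce double bonds, 7 passed the filter, and 1 rose and none fell in edgeR. Of these 7 genes, 5 lay higher without overlap, against 11.3% of all genes, and their median log2 fold change was 2.27. The one that rose was Scd1, the single gene called by edgeR over all iNKT cells, at 12.4 and 12.6 CPM in ACC1 KO 1 and 2, against 0.0849 and 0.0320 CPM in WT 1 and 2 (edgeR adjusted p = 0.0229). Scd2 stood at 2.73 ± 0.19 (SE), Fads1 at 1.66 ± 0.20 and Fads2, with 3.39 and 5.10 CPM in ACC1 KO 1 and 2, was at 0.0424 and 0.0320 CPM in WT 1 and 2. DESeq2 also called Scd2 (adjusted p = 2.9e-34), Fads2 (6.5e-10) and Fads1 (3.8e-06). FADS1 and FADS2 alternate with ELOVL5 in making polyunsaturated fatty acids. Of 8 tested members among 11 transcription factors of lipid synthesis and their regulators, none passed in edgeR. Without overlap, 3 lay higher, against 11.3% of all genes. They were Srebf1 (1.75 ± 0.14), Insig1 (1.64 ± 0.17) and Srebf2 (0.84 ± 0.17), and the median was 0.06, with Mlxip at 0.07 ± 0.13. DESeq2 called Srebf1 (adjusted p = 3.0e-16), Insig1 (2.5e-09) and Srebf2 (0.0171).

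Among 10 tested genes of ceramide synthases and sphingolipid entry, which use very long chains, none passed in edgeR, and the median was -0.13. Without overlap, 1 lay higher and 2 lower, against 11.3 and 19.3% of all genes. Cers6, a ceramide synthase for shorter chains, stood at 0.98 ± 0.26 (SE), and Cers4, one for longer chains, at -0.56 ± 0.19, with 27.2 and 35.4 CPM in ACC1 KO 1 and 2, against 45.4 and 50.2 CPM in WT 1 and 2. Sptlc2, a subunit of serine palmitoyltransferase, stood at -0.17 ± 0.12 and Ormdl3, which inhibits that enzyme, at -0.24 ± 0.22. Among 10 tested genes of acyl-CoA synthesis and binding none passed in edgeR, and the median was -0.03. Without overlap, 3 lay higher and 3 lower, against the same 11.3 and 19.3%. Acsl3, a long-chain acyl-CoA synthetase, stood at 2.05 ± 0.14, the acyl-CoA binding protein gene Dbi at 0.86 ± 0.15, Acsl4 at 0.40 ± 0.13 and Acsbg1 at -0.26 ± 0.13, and DESeq2 called Acsl3 (adjusted p = 3.6e-17) and Dbi (0.00196). Of 10 tested peroxisomal genes for very long chains, none passed in edgeR, and the median was -0.01. Without overlap, 4 lay lower and 0 higher, against 19.3 and 11.3% of all genes. These 4 were Acox3 (-0.20 ± 0.16), Ehhadh (-0.23 ± 0.23), Scp2 (-0.12 ± 0.13) and Hsd17b4 (-0.10 ± 0.14). The counts for all 7 lists are from the comparison over all iNKT cells, where 0.00681% of genes passed in edgeR and 0.712% in DESeq2.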

How the data were processed

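The authors deposited UMI counts for each gene in each barcode. The submitters' processing notes name Cell Ranger 7.0.0 and mm10, and per the file headers the matrices are Cell Ranger output. Gene positions are from GENCODE vM21. Cells were kept with at least 500 genes, 1000 UMIs and under 10% mitochondrial UMIs, and doublets were removed at 0.8% per 1000 cells. Of 30455 barcodes, 28247 were kept. They were clustered with the Leiden algorithm (leidenalg 0.10.2) at resolution 1 on 2000 variable genes and 30 principal components, after scaling within each replicate number and without the elongation and list genes. This gave 22 clusters, and 27036 iNKT cells were used after 1211 cells of other types were left out. Clusters were named by marker scores whose limits were set after the data were seen. Counts were summed per library and class, and genotypes were compared with the edgeR 4.0.16 quasi-likelihood test (TMM, filterByExpr, robust, no covariate). P-values were adjusted over all genes tested, with a threshold of 0.05. Classes were compared on 16 sums with a term for the library. Fold changes within a number compare log2 CPM after a prior count of 2 was added.

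The members and lists were chosen with earlier results of these data known. Text names all 8 genes, up to 4 genes per list with the smallest p, and the 3 genes most like each member above 20 CPM. DESeq2 1.42.0, other scalings, filters, clusterings, cell sets and leaving out each library were alternatives. The tests were tried on simulated data. The comparison planned for iNKT2-like cells was run on the Plac8/Zbtb16-led cluster.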

Additional observations from a re-analysis of the deposited data

How the results depend on the processing

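Elovl5, Elovl6 and Elovl7 kept a positive genotype log2 fold change over all iNKT cells without each library in turn, at 0.53 to 0.84, 0.19 to 0.29 and 0.62 to 1.37. With a replicate block on the number of the titles, 1432 genes (9.75% of those tested) were called over all iNKT cells in place of 1. With it 2 elongation genes were called in place of 0, Elovl5 (0.69) and Elovl7 (0.93). In iNKT1-like cells the replicate block called 1194 genes (8.75%) and 3 elongation genes (Elovl5, Elovl6 and Elovl7). In the Plac8/Zbtb16-led cluster it called 87 (0.854%) and 1 (Elovl5), and in cycling cells 195 (1.79%) and 2 (Elovl5 and Elovl6). In interferon-responding cells it called 379 (3.76%) and 2 (Elovl5 and Elovl7). The labels do not say that the numbers pair the samples, and 2 pairs are too few to settle it. DESeq2 called 103 genes over all iNKT cells, 80 in iNKT1-like (1 elongation gene), 3 in Plac8/Zbtb16-led, 7 in cycling and 10 in interferon-responding cells. Without a filter the counts were 366, 218, 30, 39 and 72, with 2, 2, 0, 0 and 1 elongation genes. There any gene with a count was tested, at most the 32285 of the files. With a mean of at least 10 CPM they were 0 over all iNKT cells, 0 in iNKT1-like and 2 in cycling cells, in place of 1, 1 and 4. Over all iNKT cells, every deposited barcode gave 0, the same mix of classes 2 and sums thinned to the smallest total 0. Keeping list genes for clustering gave 1 in the Plac8/Zbtb16-led cluster, in place of 0, and resolution 0.5 gave 2 in interferon-responding cells, in place of 4. Leaving out each library gave 3 to 69 calls over all iNKT cells, 2 to 44 in iNKT1-like, 1 to 68 in Plac8/Zbtb16-led (0 to 1 elongation genes), 17 to 80 in cycling (0 to 1) and 14 to 61 in interferon-responding cells.

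Between classes, the WT libraries alone called 529 genes and 0 elongation genes for interferon-responding over iNKT1-like cells, in place of 1186 and 2, where DESeq2 called 1 elongation gene and leaving out each library 1 to 2. They called 2568 genes for cycling over Plac8/Zbtb16-led cells, in place of 5064. At resolution 0.5, 7 elongation genes differed between interferon-responding and cycling cells, in place of 4, where 7485 genes were called in place of 6888 and the cycling class held 2336 cells in place of 1319. Hacd3 in cycling over iNKT1-like cells turned to 0.28 at resolution 0.5 and 0.18 at resolution 2, both called, and in interferon-responding over cycling cells to -0.24 and -0.17. Elovl6 turned to 0.35 in that last comparison at resolution 0.5. DESeq2 called 4 and 0 genes for the difference of genotype effects in cycling and interferon-responding cells, in place of 18 and 9. The cause of these shifts was not tested. Resolution 0.5 gave no Plac8/Zbtb16-led class, and resolution 2 left 49 of its cells in WT 1, so that these alternatives have no value. Of 1004 values of elongation genes under alternatives, 923 were counted as the same, on the same side of the threshold, 874 with their sign and 49 uncalled values with the other sign. A further 20 were counted as moved, such as Elovl1 over all iNKT cells, at -0.06 and at 0.18 without WT 2. The rest gained a call (33), lost it (23) or were called with the other sign (5). Depth limited Elovl7 in the Plac8/Zbtb16-led cluster and all genes in the iNKT0-like and iNKT17-like classes.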

Other observations

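In B cell-like cells, which were left out above, Elovl7 had 0 UMIs in all 4 libraries, which at 3 counts allows up to 7.28 and 9.58 CPM in ACC1 KO 1 and 2, and up to 1.29 and 27.2 CPM in WT 1 and 2. These limits cover counting error only.

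An unnamed iNKT cluster of 179 cells, led by A330093E20Rik and Gm42418, had the highest Elovl5 of all clusters in both ACC1 KO libraries and in WT 2, but not in WT 1. It had 276.1 and 260.4 CPM in ACC1 KO 1 and 2, against 100.4 and 190.7 CPM in WT 1 and 2, where WT 1 had 11 cells. Its cells were shallow, with medians of 2031 and 2979 UMIs in ACC1 KO 1 and 2, and 2912 and 2593 UMIs in WT 1 and 2.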
